A study of Mus musculus with 3 samples.

Results

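Notch1-high and Notch1-low epithelial cells from cochlear explants treated with doxycycline (Dox) are described here. The cells were chosen by their own Notch1 count. A cell had to hold at least 200 genes, 1 to 20% mitochondrial UMIs (unique molecular identifiers, each standing for 1 captured RNA molecule), at least 10000 UMIs and at least 1 UMI of Epcam, an adhesion protein of epithelial cells. High cells had at least 500 CPM of Notch1 (its UMIs divided by all UMIs of the cell, times 1000000), and low cells had at most 50 CPM. The rule found 182 high and 31 low cells, 213 of the 2395 barcodes of the series. Because Notch1 chose the cells, its own values are a description and were not tested.

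The explants came from mice of 4 to 6 weeks that carried rtTA, a transcription factor active only with Dox, together with tet-on-Myc and tet-on-NICD, and the control cultures carried all of these too. NICD is the intracellular domain of the Notch receptor. The promoter that drives rtTA, the tet-responsive elements' copy number and the receptor gene from which the NICD transgene was built are not given in the sources used here, and whether its RNA is counted under Notch1 was not tested. Cultures received Dox at 2 µg/ml for 4 days (2 libraries, Dox replicates 1 and 2, each from pooled cultures) or water (1 Control library), and single-cell libraries were made from the dissected sensory epithelium. High and low cells of a library come from the same pool, and nothing but their RNA separates them. The deposited matrices held 512 barcodes and 5436731 UMIs for Control and 788 and 1095 barcodes with 20309102 and 33385927 UMIs for Dox replicates 1 and 2. The labels describe 4 cultures pooled per library. The p-values therefore rest on how far the differences between high and other cells agree in 2 pools, and on a dispersion estimated with the help of all genes. The spread between the pools may be technical.

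Notch is a receptor that is cut after binding a ligand such as Jagged on a neighbouring cell. The released NICD enters the nucleus, joins the DNA-binding protein RBPJ and activates target genes, among them Hes and Hey repressors and Nrarp, a small ankyrin-repeat protein that binds the NICD complex and limits it. In the developing cochlea Notch signals keep supporting cells from becoming hair cells, and Hes5, Hey2, Lfng and Jag1 are known from supporting cells. NICD made from a transgene needs no ligand and no cutting.

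Of the 15 listed Notch target genes, 9 had a promoter sequence in the RefSeq table (GRCm38.p6, 250 bases before to 50 bases after the RefSeq start). Below are 4 of them, shown because Nrarp and Jag1 had higher levels in high cells of both Dox libraries, whereas Hes5 and Hey2 are canonical RBPJ targets with low levels. Each is printed 5′ to 3′ on the strand of its gene. Capitals mark the RBPJ core TGGGAA on either strand and the E-box CACGTG, recognition letters of MYC and its partners, and the searched motifs can overlap.
Nrarp, chr2:25180508-25180807, plus strand: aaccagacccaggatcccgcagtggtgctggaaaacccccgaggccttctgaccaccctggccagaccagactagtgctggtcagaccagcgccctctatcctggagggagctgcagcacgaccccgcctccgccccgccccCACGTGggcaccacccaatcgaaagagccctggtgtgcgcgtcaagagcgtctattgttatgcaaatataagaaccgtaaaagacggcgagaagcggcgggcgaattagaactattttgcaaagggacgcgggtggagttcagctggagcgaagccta
Jag1, chr2:137116471-137116770, minus strand: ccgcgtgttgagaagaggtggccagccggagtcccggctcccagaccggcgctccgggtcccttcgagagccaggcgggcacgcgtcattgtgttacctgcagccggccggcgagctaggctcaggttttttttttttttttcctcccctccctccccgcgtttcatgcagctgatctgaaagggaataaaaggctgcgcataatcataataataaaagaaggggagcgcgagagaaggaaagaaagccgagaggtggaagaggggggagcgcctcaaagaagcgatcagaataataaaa
Hes5, chr4:154960673-154960972, plus strand: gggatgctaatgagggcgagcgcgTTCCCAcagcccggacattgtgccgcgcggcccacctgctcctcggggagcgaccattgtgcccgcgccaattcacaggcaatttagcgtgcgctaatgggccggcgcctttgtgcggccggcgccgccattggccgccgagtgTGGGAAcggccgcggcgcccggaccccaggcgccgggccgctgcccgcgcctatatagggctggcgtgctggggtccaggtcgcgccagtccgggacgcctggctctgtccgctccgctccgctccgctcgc
Hey2, chr10:30842734-30843033, minus strand: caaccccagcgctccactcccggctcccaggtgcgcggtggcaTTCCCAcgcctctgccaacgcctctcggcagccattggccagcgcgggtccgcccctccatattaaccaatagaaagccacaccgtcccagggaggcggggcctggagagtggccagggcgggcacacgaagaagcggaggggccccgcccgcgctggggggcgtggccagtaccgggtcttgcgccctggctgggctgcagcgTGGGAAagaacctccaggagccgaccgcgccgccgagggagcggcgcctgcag

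The Hes5 and Hey2 windows each held 2 matches to the RBPJ core, all 4 of which were also the longer form GTGGGAA. The Nrarp window held no RBPJ core and 1 E-box, and the Jag1 window held neither. Gene coordinates printed further below are from GENCODE, and for Jag1 their start differs from the RefSeq start used for the window. Of the 9 promoters, 5 held the core and 4 the longer form. Among all 32851 promoters of this length in the table, 25.6% held the core, 6.38% the longer form and 7.15% the E-box. A match is a description of letters and not a measured binding site.

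The 37 Control cells that met the same conditions apart from the Notch1 limits had a median of 48.1 CPM of Notch1, and the highest had 240 CPM. None of them was a high cell, which allows a share of up to 8.11% by the limit of 3 cells of 37 and up to 9.49% by the two-sided Clopper-Pearson interval, and 19 were low cells. In Dox replicate 1, 171 cells met the conditions with a median of 405 CPM: 65 were high, 105 lay between the limits and 1 was low. In Dox replicate 2, the 463 cells had a median of 290 CPM, and 117 were high, 316 between the limits and 30 low. High cells made up 38.0% of these cells in replicate 1 (95% Clopper-Pearson interval 30.7 to 45.7%) and 25.3% in replicate 2 (21.4 to 29.5%), and intervals and limits of this kind cover counting error only. The values formed 1 continuous spread across the limits. In replicate 2 the highest low cell had 49.8 CPM and the next cell 51.3 CPM, and at the upper limit the nearest cells had 493 and 501 CPM (499 and 502 CPM in replicate 1).

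**Figure D1:**
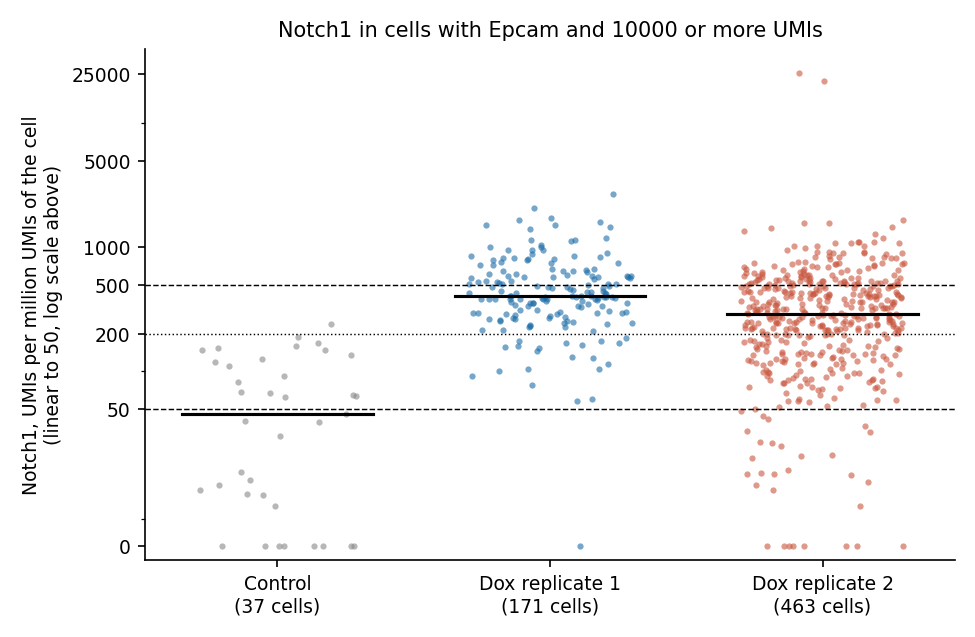
Notch1 in each cell that met the conditions (points), by library, in CPM of the cell on an axis that is linear up to 50 and logarithmic above. Black bars are medians (48.1, 405 and 290 CPM), dashed lines mark the limits of 50 and 500 CPM and the dotted line marks 200 CPM. Only 1 cell of Dox replicate 1 lies under the lower limit, and 2 cells of Dox replicate 2 lie far above all others.

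The only low cell of Dox replicate 1 held 10031 UMIs and 2089 genes, and no UMI of Notch1, Myc or Malat1, a nuclear RNA found in almost every intact cell. For comparison, the 65 high cells of that library had a median of 57888 UMIs and 7359 genes. A comparison of high with low cells over both libraries therefore rests in replicate 1 on 1 cell of marginal depth. In replicate 2 the depths were closer, with a median of 35077 UMIs in high and 41641 in low cells.

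Epcam was part of the rule, so the label of epithelial cells was checked on the other markers. The 9 epithelial markers other than Epcam summed to 3835 and 3907 CPM in high cells of replicates 1 and 2, and to 4180 CPM in the low cells of replicate 2, with none of them at 0. In the only low cell of replicate 1 they summed to 1900 CPM. No single named cell type was shown. Markers of macrophages, neutrophils, lymphoid and red cells, vessels, melanocytes, neurons and bone each summed to at most 18.5 CPM in high cells. The lists of glia, fibroblasts and pericytes are not part of that limit. Of 10 Schwann and satellite glia markers, 5 could be tested against the cells under 200 CPM described below. Their median log2 difference was 0.65, with 4 higher in both libraries and 0 called. Over all genes tested the median was 0.00, with 27.3% higher in both libraries and 0.201% called. Among fibroblast and pericyte markers only Lum and Notch3 could be tested there. Ptprc, Lyz2, C1qa and Dcn had no UMI in high cells of either library. Of the 21 defining genes of other cell types, 17 and 14 had no UMI in high cells of replicates 1 and 2. The largest part of the rest was Lum (96.9 and 126 CPM). Lum was also a leading gene of clusters, but all clustered cells had been chosen by Epcam, so this does not tell its source. Markers of different cochlear epithelia did move with Notch1 and are given beside the results below. No doublet caller was run. Of the barcodes, 68 to 101 were shared by each pair of libraries, but no pair member met the conditions in both, and cells with such barcodes made up 12 of the 65 high cells of replicate 1 and none of the 117 of replicate 2. They were 8 of the 21 cells under 200 CPM of Notch1 in replicate 1 and 8 of the 149 in replicate 2. Between the limits, 67 of the 105 cells of replicate 1 and 297 of the 316 of replicate 2 were left without them.

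For every comparison, each cell was thinned to 10000 UMIs, counts were summed per library and class, and the sums were tested by edgeR's quasi-likelihood F test with the library as a block and Benjamini-Hochberg adjustment over all genes tested. Levels below are CPM of these sums. With the 50 CPM limit, 0 of 6168 genes (0.0%) passed an adjusted p of 0.05, while 66 had an unadjusted p under 0.05, DESeq2 called 1 and edgeR's legacy fit called 7. On simulated sums of the same total counts, with 1 dispersion for all genes, none of the 2-, 4- or 8-fold changes was recovered. Single cells were not simulated, so the spread of a sum of 1 cell was not modelled. The lack of calls does not show equal levels. The values of replicate 2 (117 against 30 cells) are given as descriptions with no test.

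In replicate 2, Nrarp was at 288 CPM in high cells and 6.67 CPM in low cells, and Heyl, a Hey-family repressor, was at 70.9 and 6.67 CPM. Gstm1, a glutathione transferase, was at 432 and 30 CPM, and the membrane channel gene Ttyh1 at 97.4 and 6.67 CPM. Sparcl1, a secreted matrix-associated protein, had 91.5 CPM in high cells and no UMI in low cells. Hes1, a Notch target in many tissues, ran the other way, with 106 CPM in high and 287 CPM in low cells. The low cells of replicate 2 thus had Nrarp and Heyl near the Control cells, where Nrarp had 1 UMI in all (2.70 CPM, exact Poisson interval 0.0684 to 15.1) and Heyl 3 UMIs (8.11 CPM, 1.67 to 23.7).

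To compare the classes in both libraries, the low class was widened to all cells under 200 CPM of Notch1, a limit of the 5 ranges described below. This widened comparison was added after the cell numbers had been seen. It set 65 high cells against 21 cells in replicate 1 and 117 against 149 in replicate 2. Of 8457 genes, 17 were called (0.201%), 12 higher (0.142%) and 5 lower (0.0591%) in high cells, and all 17 had the same sign in both libraries. The test itself favours genes whose differences agree between the libraries, so the equal signs are no added support. Of all genes tested, 27.3% were higher and 26.9% lower in both. On simulated sums of the same total counts, with 1 dispersion for all genes, 58.9% of 4-fold and 79.7% of 8-fold changes but 1.61% of 2-fold changes were recovered. Another comparison, also added later, set the same high cells against the 105 and 316 cells between 50 and 500 CPM. There 291 of 9021 genes were called (3.23%), 183 higher (2.03%) and 108 lower (1.2%). Scaling by total counts gave a split of 236 higher and 87 lower. These comparisons share all their high cells and part of their other cells, so their calls are not independent of each other. Calls varied widely with the settings. In the widened comparison DESeq2 called 0 genes (78 had an unadjusted p under 0.05), and edgeR called 0 without the library block, without the dividing cells or without the cells of shared barcodes. With 1 cell of the widened low class of replicate 1 left out (20 in place of 21), edgeR called 1 gene. That cell's UMIs of the defining genes of other cell types were not below those of its epithelial markers. Against the cells between 50 and 500 CPM, DESeq2 called 21 genes, and edgeR called 27 without the cells of shared barcodes and 0 without the library block. With the classes matched for depth, edgeR called 87 genes in the widened comparison and 6 against the cells between 50 and 500 CPM. Values per library therefore come first below.

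Among the Notch target genes, Fabp7 rose in the widened comparison, and Nrarp, Heyl and Jag1 had higher and Hes1 lower levels in high cells of both libraries without passing the threshold. In the widened comparison 12 of the 15 target genes could be tested and had a median log2 difference of 1.01, beside 0.00 for all genes tested. By library the median was 0.26 in replicate 1 and 1.10 in replicate 2, so the list's difference rested mainly on replicate 2. Of the 12, 1 was called higher (Fabp7) and none lower, and 8 were higher in both libraries, as were 27.3% of all genes tested. The targets had been put on the list for their known link to Notch and with earlier results of these data in view.

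Nrarp (chr2:25180758-25183339, plus strand, GRCm38) was at 285 CPM in high cells and 200 CPM in cells under 200 CPM of Notch1 in replicate 1, and at 288 and 78.5 CPM in replicate 2. High cells of both libraries thus had about the same level, and the libraries differed in the cells below. The fitted log2 difference was 1.24 ± 0.28 (SE) and missed the threshold (adjusted p = 0.12, edgeR). Once the classes were matched within each library for cell kind, meaning the same number of cells from each Leiden cluster (20 against 20 and 80 against 80 cells), it was 1.26 ± 0.25 and passed (adjusted p = 0.0011, edgeR). The clusters had been made without Notch1 and without the target genes. The matched cells were taken by 1 random draw, and no other draw was made. Before thinning, the matched high and low cells of replicate 1 had medians of 60503.5 and 35874.5 UMIs.

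Heyl (chr4:123233556-123249875, plus strand) was at 129 and 52.4 CPM in replicate 1 and at 70.9 and 32.2 CPM in replicate 2, so that high cells had over 2 times the level in each library. Its log2 difference of 1.13 ± 0.26 missed the threshold (adjusted p = 0.13, edgeR), and with cell kinds matched it was 1.47 ± 0.37 (adjusted p = 0.045, edgeR). Jag1 (chr2:137081456-137116644, minus strand), a ligand that is itself a Notch target, was at 118 and 66.7 CPM in replicate 1 and at 94.9 and 34.9 CPM in replicate 2. Its log2 difference was 1.17 ± 0.27 (adjusted p = 0.12, edgeR).

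Hes1 (chr16:30064384-30067796, plus strand) was at 76.9 CPM in high cells and 105 CPM in the widened low class of replicate 1, and at 106 and 269 CPM in replicate 2. It was lower in high cells of both libraries, at a log2 difference of -1.12 ± 0.24 that missed the threshold (adjusted p = 0.088, edgeR). Against the cells between 50 and 500 CPM it fell by 0.82 on the log2 scale (SE 0.16, adjusted p = 0.00077, edgeR), from 95.2 to 76.9 CPM in replicate 1 and from 212 to 106 CPM in replicate 2. In the 37 Control cells Hes1 was at 211 CPM, above the high cells of both Dox libraries.

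Fabp7, a fatty acid-binding protein of supporting cells and glia, rose with a log2 difference of 2.39 ± 0.38 (adjusted p = 0.023, edgeR). It was at 102 and 47.6 CPM in replicate 1 and at 45.3 and 2.68 CPM in replicate 2. In replicate 2 most of it came from the 19 cells at 1000 CPM of Notch1 or more, with 221 CPM against 11.2 CPM in the cells from 500 to 1000 CPM. With cell kinds matched the difference was 1.39 ± 0.53 (adjusted p = 0.66, edgeR).

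The other targets were low or separated the classes less. Hey1 was at 117 and 85.7 CPM in replicate 1 and at 115 and 105 CPM in replicate 2. Hes5 was at 18.5 and 14.3 CPM in replicate 1 and at 21.4 and 4.70 CPM in replicate 2, and no UMI of it was found in the Control cells. Hey2 was at 35.4 and 33.3 CPM in replicate 1 and at 39.3 and 16.1 CPM in replicate 2. Lfng, a glycosyltransferase that modifies Notch, was at 33.8 and 28.6 CPM in replicate 1 and at 10.3 and 0.671 CPM in replicate 2. In CPM these genes were higher in the high cells of both libraries, by a small margin for Hey2 and Lfng in replicate 1 and for Hey1 in replicate 2. The within-library log2 difference of Hey2 after TMM scaling was -0.05 in replicate 1 and 1.15 in replicate 2. None passed the threshold.

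Ccnd1, which encodes cyclin D1 and is a target of Notch in several tissues, was at 534 and 338 CPM in replicate 1 and at 586 and 291 CPM in replicate 2 in the widened comparison (log2 0.78 ± 0.19, adjusted p = 0.16, edgeR). Against cells between 50 and 500 CPM it rose by 0.60 ± 0.12 (adjusted p = 0.00065, edgeR), and Jag1 rose by 0.58 ± 0.18 (adjusted p = 0.049, edgeR). Nrarp did not pass there: it was at 285 and 276 CPM in replicate 1 and at 288 and 181 CPM in replicate 2. With cell kinds matched, neither Ccnd1 (adjusted p = 0.054) nor Jag1 (adjusted p = 0.36) nor Hes1 (log2 -0.54, adjusted p = 0.16) was called by edgeR against the cells between 50 and 500 CPM.

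**Figure D2:**
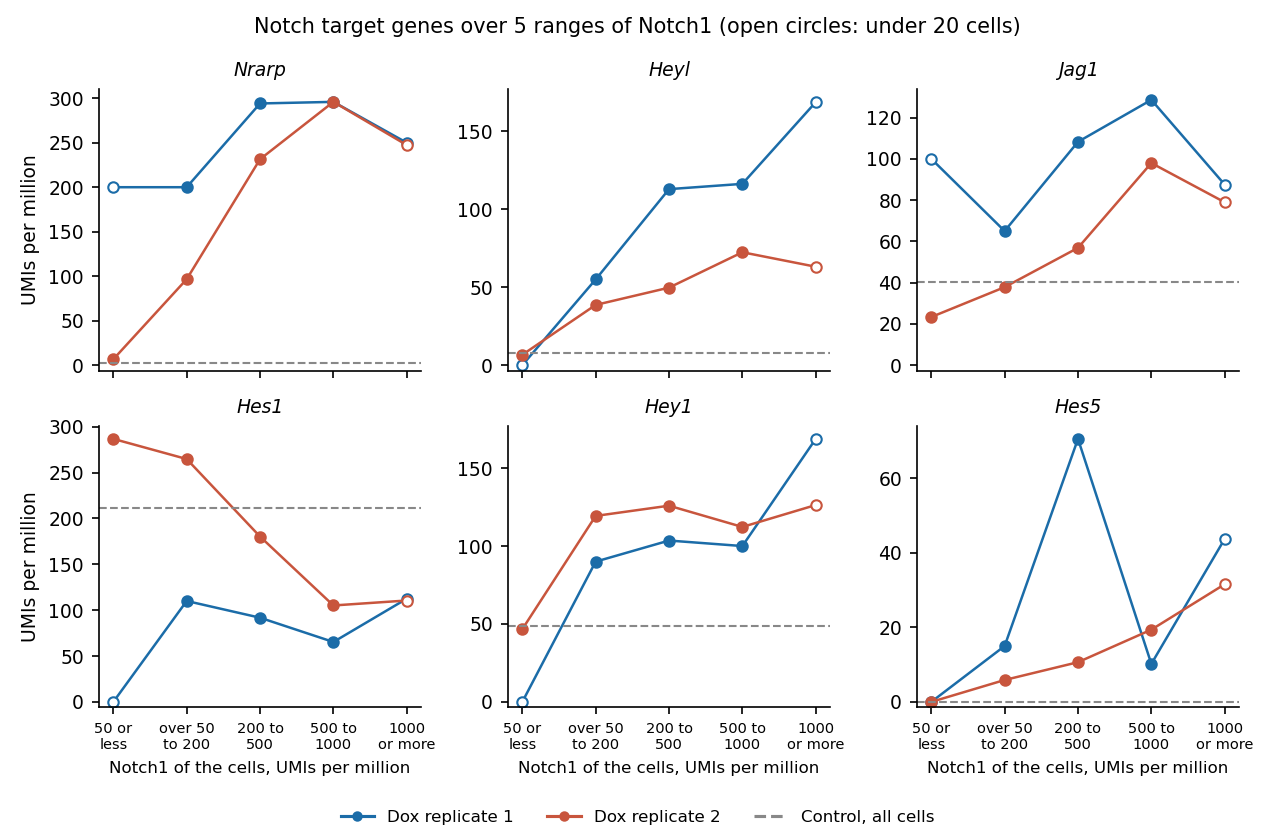
Level of 6 Notch target genes (CPM of the summed, thinned cells) in 5 ranges of the cells' own Notch1, for Dox replicate 1 (blue) and Dox replicate 2 (red). The grey dashed line is the Control sum of 37 cells, which is 0 for Hes5, and open circles mark ranges of under 20 cells (1 and 16 cells in replicate 1, 19 in replicate 2). Over the first 4 ranges of replicate 2 Nrarp goes from 6.67 to 296 CPM and Hes1 from 287 to 105 CPM.

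Over the 5 ranges of Notch1 (50 CPM or less, over 50 to under 200, 200 to under 500, 500 to under 1000, and 1000 CPM or more), replicate 2 held 30, 119, 197, 98 and 19 cells. There Nrarp was at 6.67, 96.6, 231, 296 and 247 CPM, with its highest level in the fourth range. Heyl in replicate 2 was at 6.67, 38.7, 49.7, 72.4 and 63.2 CPM. Hes1 in replicate 2 took the opposite order, with 287, 265, 180, 105 and 111 CPM. In replicate 1 the first range was 1 cell and the others held 20, 85, 49 and 16 cells. From the second range on, Nrarp was at 200, 294, 296 and 250 CPM in replicate 1, Heyl at 55.0, 113, 116 and 169 CPM and Hes1 at 110, 91.8, 65.3 and 112 CPM. Above 50 CPM of Notch1, Hey1 lay between 90.0 and 169 CPM in replicate 1 and between 112 and 126 CPM in replicate 2. These ranges were not tested, and their cells differed in depth before thinning. At 1000 CPM of Notch1 or more the median was 28241.5 UMIs in replicate 1 and 27617 in replicate 2. From 500 to 1000 CPM it was 61796 and 38655.5 UMIs.

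Of 35 listed ligands, receptors and machinery genes, 24 could be tested in the widened comparison and 0 were called, with a median log2 difference of 0.20. The ligand genes Dll1 and Dll4 had no UMI in any Dox range. Rbpj, which encodes the DNA-binding partner of NICD, was at 55.4 and 61.9 CPM in replicate 1 and at 59.0 and 37.6 CPM in replicate 2. Notch3 was at 63.1 and 66.7 CPM in replicate 1 and at 67.5 and 39.6 CPM in replicate 2.

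Myc shares its name with the tet-on-Myc transgene, and whether transgene RNA is counted under it was not tested. In the widened comparison Myc was at 52.3 and 28.6 CPM in replicate 1 and at 100 and 52.3 CPM in replicate 2. Its log2 difference of 0.87 ± 0.28 missed the threshold (adjusted p = 0.34, edgeR). Set against the cells between 50 and 500 CPM, Myc was called (log2 0.71 ± 0.20, adjusted p = 0.027, edgeR), with 52.3 and 48.6 CPM in replicate 1 and 100 and 48.7 CPM in replicate 2. Without the 2 cells of extreme Notch1 described below it was not (log2 0.32, adjusted p = 0.48, edgeR). Of 30 MYC-responsive growth genes none was called in the widened comparison (median -0.10). In the comparison with cells between 50 and 500 CPM, 3 of the 30 fell, beside 1.2% of all genes: Hspe1, a mitochondrial chaperonin, by 0.40, Nme1, a nucleoside diphosphate kinase, by 0.57 and Eif5a, a translation factor, by 0.39 on the log2 scale (list median -0.20). Once cell kinds were matched in that comparison, none of the 30 fell, Tfrc, the transferrin receptor, rose, and the median was -0.01. None of 79 cytosolic ribosomal protein genes was called in either comparison with all cells (medians -0.25 and -0.18). With cell kinds matched against the cells between 50 and 500 CPM, 10 of the 79 were called lower, with a median of -0.17. Among them were Rps2, Rpl24, Rpl30 and Rpl34. This fit called 20 genes higher and 21 lower among all 8152 genes tested.

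The 12 genes that rose in the widened comparison included a receptor subunit, an ion channel and a matrix gene. Gabrp, a subunit of the GABA-A receptor, was at 118 and 28.6 CPM in replicate 1 and at 55.6 and 10.1 CPM in replicate 2 (log2 2.25 ± 0.34). Kcnj16, an inward-rectifier potassium channel, was at 20 and 4.76 CPM in replicate 1 and at 23.9 and 2.01 CPM in replicate 2 (log2 3.16 ± 0.59). Ttyh1 was at 111 and 38.1 CPM in replicate 1 and at 97.4 and 20.1 CPM in replicate 2 (log2 2.00 ± 0.30). In these genes high cells were above the widened low class in both libraries. Otogl, a component of the acellular membranes of the inner ear, was at 21.5 CPM in high cells and had no UMI in the other class of replicate 1, and was at 53.8 and 8.05 CPM in replicate 2 (log2 2.80 ± 0.46).

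In the Control cells Kcnj16 was at 91.9 CPM, above both Dox classes, while Gabrp had no UMI there. Other genes also rose. Pls1, an actin-bundling plastin, was at 215 and 95.2 CPM in replicate 1 and at 191 and 72.5 CPM in replicate 2 (log2 1.25 ± 0.22). Rhob, a small GTPase, was at 157 and 57.1 CPM in replicate 1 and at 232 and 101 CPM in replicate 2 (log2 1.22 ± 0.22). Pcdh17, a protocadherin, was at 100 CPM in high cells and 0 in the other class of replicate 1, and at 88.0 and 29.5 CPM in replicate 2. Nckap5, Gstm1 and Isg15, a ubiquitin-like protein induced by interferon, also rose, by 3.30, 1.22 and 2.17 on the log2 scale. Without the 2 cells of extreme Notch1, Isg15 was not called (log2 1.35, adjusted p = 0.38, edgeR).

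Of the 5 genes that fell, Tpm1 and Cald1 encode the actin-binding proteins tropomyosin and caldesmon. Tpm1 was at 132 CPM in high cells and 286 CPM in the widened low class of replicate 1, and at 138 and 306 CPM in replicate 2. Cald1 was at 3.08 and 61.9 CPM in replicate 1 and at 22.2 and 58.4 CPM in replicate 2. Ifitm1, an interferon-induced membrane protein, was at 9.23 and 71.4 CPM in replicate 1 and at 0.855 and 39.6 CPM in replicate 2. Hspb1, a small heat shock protein, was at 145 and 371 CPM in replicate 1 and at 204 and 399 CPM in replicate 2. Sulf1, an extracellular sulfatase, was at 29.2 and 66.7 CPM in replicate 1 and at 41.0 and 120 CPM in replicate 2. All 5 were at higher levels in the Control cells than in either Dox class: 251 CPM of Ifitm1, 205 of Cald1, 227 of Sulf1, 341 of Tpm1 and 668 of Hspb1.

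**Figure D3:**
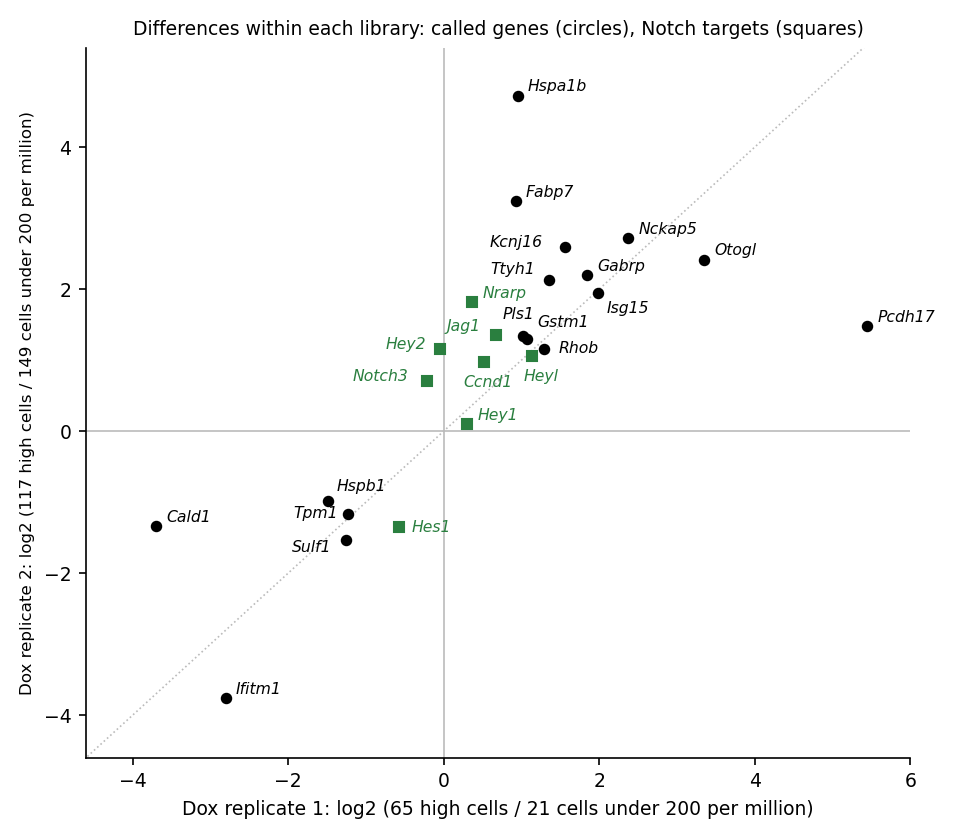
Within-library log2 difference between Notch1-high cells and cells under 200 CPM of Notch1 (prior count of 2), in Dox replicate 1 (x axis) and Dox replicate 2 (y axis). Black circles are the 17 called genes, which lie in the 2 quadrants of equal sign, and green squares are 8 Notch target genes. Hspa1b lies far above the dotted line of equality, at 0.95 and 4.73.

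Marker genes of different cochlear epithelia differed between the classes as well. The 6 markers of Reissner's membrane, the thin epithelium above the cochlear duct, summed to 423 and 757 CPM in high and widened low cells of replicate 1 and to 405 and 708 CPM in replicate 2. The 12 supporting cell markers summed to 555 and 410 CPM in replicate 1 and to 417 and 125 CPM in replicate 2, and the sulcus and Claudius cell markers to 774 and 443 CPM and to 695 and 462 CPM. Vmo1, a Reissner's membrane gene, was at 355 and 643 CPM in replicate 1 and at 331 and 567 CPM in replicate 2. Its log2 difference of -0.89 missed the threshold (adjusted p = 0.075, edgeR) and was 0.13 with cell kinds matched. Notch1 and the markers of these epithelia thus varied together. The matched values that follow compare cells within clusters that were made from variable genes of these same cells. Genes that shape the clusters, such as the leading genes Vmo1, Gabrp and Cald1, lose part of their difference by construction. The Notch target genes were left out of the clustering and are not matched in this way. The part of cell kind in the differences was therefore not tested.

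With cell kinds matched, 10 of 6410 genes (0.156%) were called by edgeR in the widened comparison. The 8 that rose were Nrarp, Heyl, Nckap5 (log2 2.62), Ttyh1 (1.54), Sparcl1 (1.82), Cox4i2 (1.45), a lung-type respiratory chain subunit, Pdk4 (1.14), a kinase that holds back pyruvate oxidation, and Wfdc3 (1.31), which was higher in replicate 2 only. Lgals1, encoding galectin 1, and Gpx3, a secreted glutathione peroxidase, fell by 1.87 and 1.57. Cald1, Tpm1 and Hspb1 were at 0.30, -0.40 and -0.45 and were not called there. Gabrp (1.52), Gstm1 (0.90), Rhob (1.02) and Pls1 (0.73) kept a positive difference without passing.

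**Figure D4:**
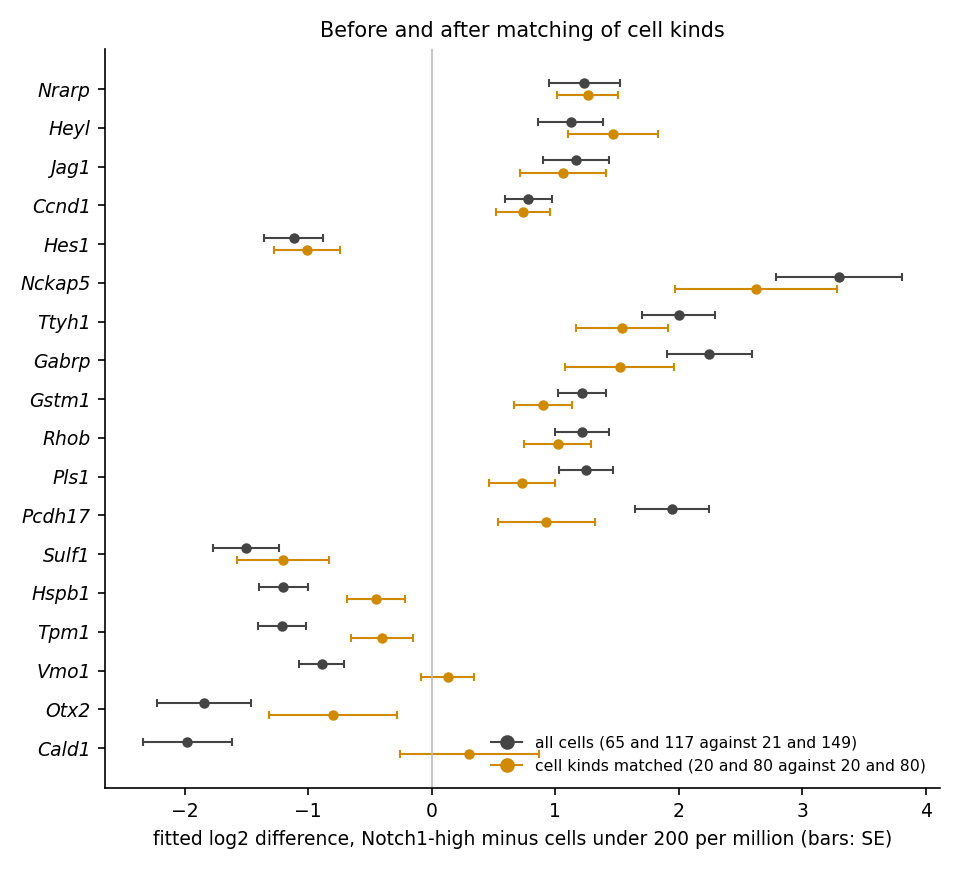
Fitted log2 difference of 18 genes between Notch1-high cells and cells under 200 CPM of Notch1, with all cells (dark) and with equal numbers of cells from each cluster in both classes (orange). Bars are standard errors of the edgeR fit. The clusters were made from variable genes of these cells, with Notch1 and the Notch target genes left out. Nrarp moves from 1.24 to 1.26 and Hes1 from -1.12 to -1.01, while Cald1 moves from -1.98 to 0.30 and Vmo1 from -0.89 to 0.13.

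Against the cells between 50 and 500 CPM of Notch1, genes of cell division were lower in high cells. Of 33 listed G2/M genes 10 fell and none rose, with a median log2 difference of -0.62 beside 0.00 for all genes, of which 1.2% were called lower. Cdk1, the kinase that drives mitosis, was at 36.9 CPM in high and 62.9 CPM in the other cells of replicate 1 and at 45.3 and 74.7 CPM in replicate 2 (log2 -0.78 ± 0.21). Top2a, the topoisomerase of dividing cells, was at 138 and 230 CPM in replicate 1 and at 189 and 262 CPM in replicate 2 (log2 -0.62 ± 0.14). None of 33 S phase genes was called (median -0.16). Cells with at least 1000 CPM over the G2/M list made up 40.0% of high and 46.7% of the other cells in replicate 1 and 43.6% and 56.0% in replicate 2. With cell kinds matched, 0 of 31 G2/M genes were called and their median was -0.09. G2/M genes such as Nusap1 and Ube2c were themselves leading genes of clusters, so matching removes part of this difference by construction. Without the dividing cells 5 genes were called in this comparison in place of 291. With depth matched, at 65 and 117 cells per class, 6 of 8483 genes were called. Before matching, the median depth was 57888 UMIs in high and 63997 in the other cells of replicate 1, and 35077 and 47857 in replicate 2.

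Immediate early genes are transcribed within minutes of a stimulus and are known to respond to tissue dissociation. Of 20 such genes, 7 rose against the cells between 50 and 500 CPM (Fos, Fosb, Jun, Egr1, Atf3, Btg2 and Zfp36) and none fell, beside 2.03% of all genes higher. The list's median of 0.37 was 0.11 with cell kinds matched, where Jun, Atf3 and Zfp36 were called, and none of the 20 was called in the widened comparison. Jun was at 2075 and 1305 CPM in replicate 1 and at 2477 and 1510 CPM in replicate 2 (log2 0.64 ± 0.11), and with cell kinds matched at 0.41 ± 0.07 it was still called (adjusted p = 1.5e-05, edgeR). Neat1, the RNA scaffold of nuclear paraspeckles, was at 738 and 323 CPM in replicate 1 and at 719 and 386 CPM in replicate 2 (log2 0.98 ± 0.12), and with cell kinds matched at 0.60 ± 0.10 (adjusted p = 7.3e-06, edgeR). Malat1 rose by 0.51 ± 0.11, and its median per cell was 14059 CPM in high and 11055 CPM in the other cells of replicate 1 and 12673 and 9514 CPM in replicate 2. The part that nuclear RNA content has in the other results was not tested.

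Of 12 tested mature supporting cell genes 5 rose in this comparison, beside 2.03% of all genes: Otogl, Sparcl1, S100a1, Epyc and Aqp4. Sparcl1 alone of the 12 was called with cell kinds matched, and the median was 0.18 in place of 0.52. Sparcl1 was at 123 and 52.4 CPM in replicate 1 and at 91.5 and 36.4 CPM in replicate 2 (log2 1.24 ± 0.18), and its difference was as large with cell kinds matched (1.42 ± 0.23, adjusted p = 2e-06, edgeR). Aqp4, a water channel, was at 58.5 and 40.0 CPM in replicate 1 and at 53.8 and 19.6 CPM in replicate 2 (log2 1.03 ± 0.24). Epyc, a matrix proteoglycan, rose by 0.51 but was at -0.27 with cell kinds matched. Summed over the list, the supporting cell markers were at 555 CPM in high and 683 CPM in the other cells of replicate 1 and at 417 and 141 CPM in replicate 2, in opposite order. Hair cell genes were scarce: 3 of 18 could be tested and 0 were called, and Atoh1, the transcription factor that starts hair cell formation, had no UMI in any Dox class.

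Markers of other cochlear epithelia differed in this comparison too. Of 4 tested markers of the Gabrp- and Alox15-expressing epithelium 3 rose and none fell, beside 2.03% of all genes higher. Their median was 1.38, and 0.47 with none called once cell kinds were matched. Alox15, a lipoxygenase, was at 115 and 91.4 CPM in replicate 1 and at 217 and 53.2 CPM in replicate 2. Otoa, encoding otoancorin, which attaches acellular gels to inner ear epithelia, was at 33.8 and 11.4 CPM in replicate 1 and at 26.5 and 5.06 CPM in replicate 2 (log2 1.99). Of 4 tested Reissner's membrane markers 3 fell (Vmo1, Otx2 and Meis2), beside 1.2% of all genes lower. Their median was -0.77, and -0.21 with none called once cell kinds were matched. The summed Reissner's membrane markers were at 423 CPM in high and 408 CPM in the other cells of replicate 1 and at 405 and 830 CPM in replicate 2, so that the libraries differed. Crb2, an apical polarity protein, was at 24.6 and 3.81 CPM in replicate 1 and at 15.4 and 4.11 CPM in replicate 2 (log2 2.10). Ces1d, a carboxylesterase, was at 69.2 and 26.7 CPM in replicate 1 and at 66.7 and 15.2 CPM in replicate 2, and was called with cell kinds matched as well (log2 1.12, adjusted p = 0.013, edgeR).

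Id1, Id2 and Id3, which encode dominant-negative helix-loop-helix proteins induced by BMP signals, were the 3 that rose among 8 tested BMP and Id genes, beside 2.03% of all genes. Id2 was at 152 and 80 CPM in replicate 1 and at 209 and 105 CPM in replicate 2 (log2 0.93 ± 0.15). None of these was called with cell kinds matched. Among the largest falls in this comparison, Anxa1, encoding annexin A1, was at 1.54 and 18.1 CPM in replicate 1 and at 3.42 and 92.4 CPM in replicate 2 (log2 -4.57 ± 0.40). Of 7 tested YAP and wound genes, Vim rose and Amotl2, Thbs1 and Tpm1 fell, beside 2.03% of all genes higher and 1.2% lower. Thbs1, encoding thrombospondin 1, had no UMI in the high cells of replicate 1 and was at 9.52 CPM in the other cells, and was at 9.40 and 59.5 CPM in replicate 2. Anxa1 and Ifitm1 were leading genes of 1 cluster of 42 cells, of which 1 was a high cell.

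**Figure D5:**
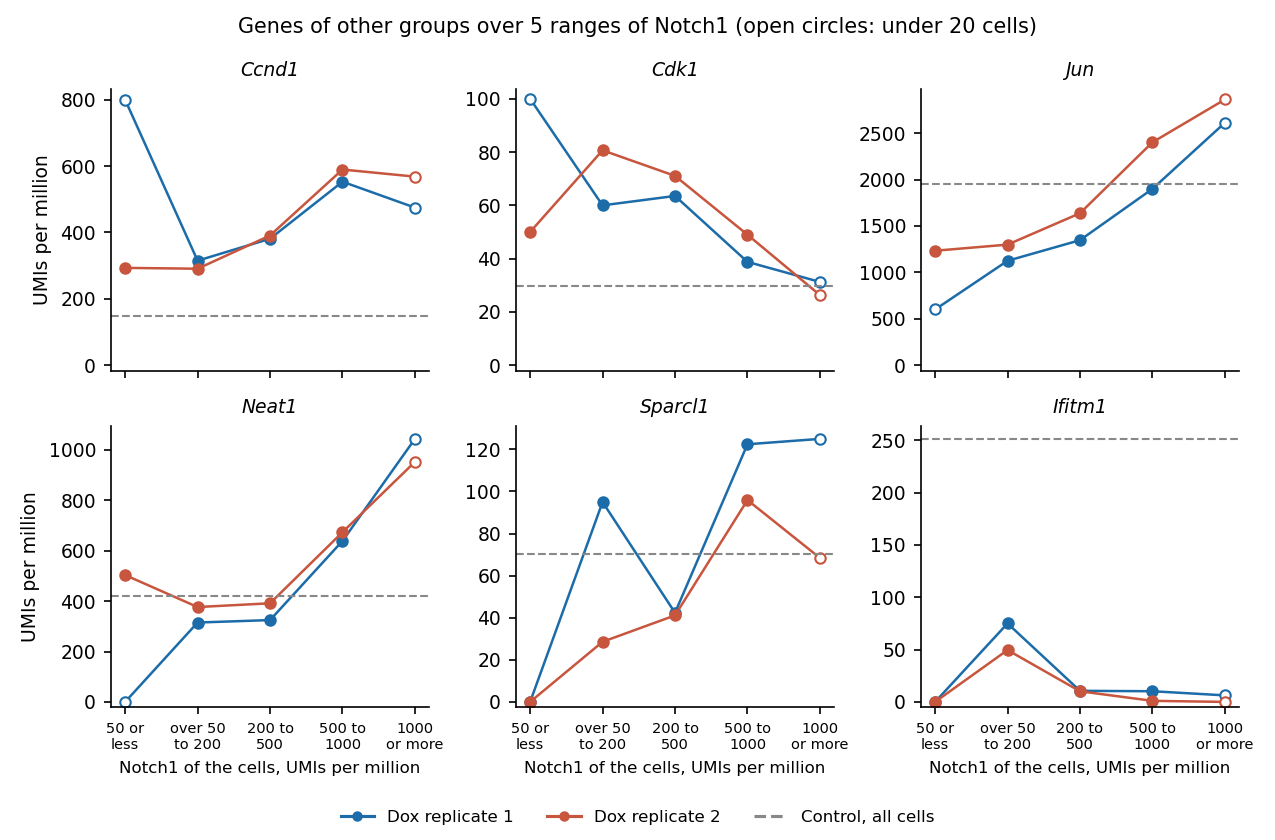
Level of 6 genes of other groups (CPM of the summed, thinned cells) in 5 ranges of the cells' own Notch1, for Dox replicate 1 (blue) and Dox replicate 2 (red), with the Control sum of 37 cells as a grey dashed line and open circles for ranges of under 20 cells. Jun goes from 1125 to 2612 CPM in replicate 1 and from 1299 to 2863 CPM in replicate 2 from the second range to the last, and Ifitm1 is highest in the second range of both.

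Of 16 tested p53 target genes 3 rose against the cells between 50 and 500 CPM (Cdkn1a, Trp53inp1 and Btg2) and none fell, beside 2.03% of all genes higher. None of the 16 was called with cell kinds matched. Trp53inp1, a stress-induced regulator of p53 and autophagy, was at 148 and 50.5 CPM in replicate 1 and at 129 and 66.5 CPM in replicate 2 (log2 1.12), and at 0.10 with cell kinds matched it was not called. Cdkn1a, a cell cycle inhibitor, was at 254 and 231 CPM in replicate 1 and at 466 and 277 CPM in replicate 2 (log2 0.46, adjusted p = 0.031, edgeR). Without the 2 cells described next, Cdkn1a was at 0.11 and was not called (adjusted p = 0.75, edgeR).

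In 2 cells of Dox replicate 2 Notch1 was far above all other cells of both libraries. They held 328 and 291 UMIs of Notch1 (25649 and 22062 CPM) among 12788 and 13190 UMIs. In comparison, the next cell of that library had 1665 CPM, and the highest of replicate 1 had 2687 CPM. Myc was also far above the other high cells, at 2346 and 1440 CPM against a median of 52.2 and a highest value of 408 CPM in the other 115. Nrarp, Heyl, Hey1 and Hes5 had no UMI in either cell, whereas the other 115 high cells had a median of 243 CPM of Nrarp. Both cells had Epcam (14 and 10 UMIs), but the keratin gene Krt8 had 0 and 1 UMI and Krt18 had 0 and 3, against medians of 1153 and 852 CPM in the others. These genes and those that follow were picked after their values had been seen.

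The same 2 cells held most of the inducible heat shock RNA of the high class. The first had 693 UMIs of Hspa1a and 315 of Hspa1b, the second had 130 and 95, and together they held 93.2% and 89.7% of these RNAs in all 117 high cells. Hspa1a and Hspa1b are near-identical copies, so reads can be divided between them with uncertainty. The first cell also had 209 UMIs of Cdkn1a (16343 CPM against a median of 126 CPM in the others). The second had 39 UMIs of Isg15. Hspa1b was called in the widened comparison (log2 4.89 ± 0.37, adjusted p = 6.5e-05, edgeR), with 12.3 and 4.76 CPM in replicate 1 and 276 and 8.05 CPM in replicate 2. Without the 2 cells it had too few UMIs to be tested there, and against the cells between 50 and 500 CPM its log2 difference was -0.17 in place of 4.20. The 7 higher and 4 lower calls of the widened comparison without these cells had Nckap5, Otogl, Fabp7, Gabrp, Pcdh17, Ttyh1 and Gstm1 as the higher genes.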

How the data were processed

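Single-cell libraries were made with the 10x 3′ v3.1 chemistry, per the labels' protocols. The deposited values are UMI counts per gene and cell, which the authors made with Cell Ranger 5.0, STAR and the GRCm38 (mm10) build, per the submitters' processing notes; per the file headers the matrices came from software version 3.1.0, and the conflict was not resolved. Cells were filtered as stated in the report, without a doublet caller, thinned to 10000 UMIs with 1 random seed, and summed per library and Notch1 class. The test of these sums was edgeR's, version 4.0.16 in R 4.3.3 (filterByExpr, TMM scaling, quasi-likelihood F test, library as a block, Benjamini-Hochberg adjustment, threshold 0.05). The non-legacy fit was set as the main one after the counts of both fits had been seen. DESeq2 1.42.0 was an alternative. The library block joins classes that come from 1 pool of cultures. It left 1 residual degree of freedom, so the dispersion of a gene drew mostly on the other genes. The prior degrees of freedom were 4.63 with the 50 CPM limit, 12.4 with the low class under 200 CPM and 59.9 against the cells between 50 and 500 CPM. Cell kinds were Leiden clusters (scanpy 1.11.5, resolution 1) made from variable genes of the same cells, without Notch1 and the Notch target genes. Within-library log2 differences used a prior count of 2. Genes named were the 12 largest called rises and falls with at least 50 thinned UMIs and 1 sign in both libraries, filled up by smallest p where fewer were called, with Epcam, Myc, the Notch target genes and up to 4 members of each other list; genes outside this rule were chosen after their values were seen. The members and lists were chosen with earlier results of these data known, and the low class under 200 CPM and the class between 50 and 500 CPM were added after the cell numbers had been seen. The fits were tested on simulated data.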

Additional observations from a re-analysis of the deposited data

How the results depend on the processing

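With the 50 CPM limit, 0 genes were called in the fit as reported. Total-count scaling called 5 higher and 1 lower, no low-count filter 1 higher, DESeq2 1 higher, no replicate block 20 higher and 6 lower, and edgeR's legacy fit 7 higher. The settings of at least 20000 UMIs and without Malat1-poor cells could not be fitted there, since no low cell of Dox replicate 1 was left. With the low class under 200 CPM, the 12 higher and 5 lower calls became 4 and 1 with another thinning seed, 137 and 75 without thinning, 62 and 25 with depth matched, 8 and 2 with cell kinds matched, 5 and 4 at 10% mitochondrial UMIs or less, 6 and 1 without Malat1-poor cells, 7 and 4 without cells over 5000 CPM of Notch1, and 72 and 42 in the legacy fit. They became 1 and 0 with Epcam at 3 UMIs or more, with epithelial above non-epithelial UMIs and with DESeq2 size factors. Each of the 2 epithelial conditions left out only 1 cell of this comparison, in the low class of replicate 1 (20 in place of 21 cells). They became 0 and 0 at 20000 UMIs or more, with other Notch1 limits (1000 CPM or more against under 100), without shared barcodes, without dividing cells, with total-count scaling, without a low-count filter, by DESeq2 and with no replicate block. Against the cells between 50 and 500 CPM, the 183 higher and 108 lower calls became 106 and 59 without thinning, 4 and 2 with depth matched, 20 and 21 with cell kinds matched, 87 and 32 at 10% mitochondrial UMIs or less, 20 and 7 without shared barcodes, 2 and 3 without dividing cells, 10 and 3 without a low-count filter, 18 and 3 by DESeq2, and 0 and 0 with no replicate block. Lower calls were 64 with either stricter epithelial condition, which left 104 in place of 105 other cells of replicate 1, and 69 without Malat1-poor cells. The cause of these shifts was not tested.

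Of 1265 alternative log2 values of 65 named gene results, not counting those with 1 library left out, 5 had the opposite sign, 509 lost the threshold and 32 gained it. With the low class under 200 CPM, Cald1 was at 0.30 and Vmo1 at 0.13 with cell kinds matched, Hspb1 at 0.94 and Gpx3 at 0.86 with other Notch1 limits, and Lgals1 ranged from -1.99 to 0.40 when 1 Dox library was left out. Against the cells between 50 and 500 CPM, Nrarp ranged from -0.0271 to 0.64 when 1 Dox library was left out, and Epyc was at -0.27 with cell kinds matched. Of the 130 values with 1 library left out, Lgals1 and Nrarp were the 2 of opposite sign. With 1 library left there is no residual degree of freedom, so those values carry no test. At the total counts of its sums, the widened comparison recovered few simulated 2-fold changes, and the parts of depth and cell number were not separated.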
